A study of Mus musculus with 36 samples.

Results

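The comparison is between a pair of differences. The first is the difference between 4 tumours grown from the UPPL1541 line and 2 tumours grown from the BBN963 line, and the second is the difference between 9 primary UPPL tumours and 11 primary BBN bladder tumours. The members were these 26 mouse libraries out of 36 in the series, chosen by their sample type and model labels, and 15229 of 21705 genes passed a filter on low values and were tested. UPPL animals and the UPPL1541 tumours carry, among other alleles, Upk3a-CreERT2, the floxed allele p53f/f and the luciferase reporter Rosa26LSL-Luc that Cre switches on, and are labelled untreated. Primary BBN tumours are labelled Ctrl in genotype and were treated with N-butyl-N-(4-hydroxybutyl)nitrosamine, and the BBN963 tumours are labelled Ctrl and untreated. Age, sex, host animal and transplantation site are not given in the sources used here. The Upk3a promoter drives Cre in the UPPL model, so recombination starts in cells that use a uroplakin promoter. Each line-derived group stands for 1 line, so a difference between the models and a difference between these lines cannot be told apart. The primary tumours numbered UPPL1541 and BBN963 carry the numbers of the lines and were part of the primary groups. The single cultures of both lines are labelled Ctrl in genotype, so the UPPL1541 culture does not carry the genotype label of its tumours and is used by its line name.

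The urothelium that lines the bladder has a superficial luminal layer, marked by uroplakins and PPAR gamma activity, above a basal layer marked by the basal keratins Krt5 and Krt14. Loss of p53 removes a brake on the cell cycle and a response to DNA damage. Nitrosamine exposure mutates many genes in urothelial cells and gives tumours with basal and squamous features. A line taken from such a tumour passes through culture, where host stroma and immune cells are gone, before it forms a tumour again in a host. Krt5 and Krt14 were above 0 in every tumour and lowest in the primary tumour UPPL1694 (10620 and 2249 deposited units), and stromal and immune genes in a line-derived tumour come with the host tissue or from the tumour cells themselves.

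The calls of the 2 comparisons overlapped about as often as the shares over all genes, and most primary calls were undecided after transplantation. Of 15229 genes tested, 1245 (8.18%) differed between UPPL1541 and BBN963 tumours, 1056 (6.93%) higher in UPPL1541 and 189 (1.24%) lower. Between UPPL and BBN primary tumours 2956 genes (19.4%) differed, 905 (5.94%) higher in UPPL and 2051 (13.5%) lower. Both comparisons were passed by 252 genes. This is 20.2% of the line-derived calls, beside 19.4% of all genes that passed in primary tumours. It is 8.53% of the primary calls, beside 8.18% of all genes that passed in line-derived tumours. Across genes the pair of log2 differences had a Pearson r of 0.076 and a Spearman rho of 0.0609 over 15229 genes, which share libraries and are not independent replicates. The difference of differences passed for 1404 genes (9.22%), 1243 (8.16%) in favour of UPPL after transplantation and 161 (1.06%) in favour of BBN. All these calls come from 1 limma fit of the 4 group means on log2(value + 1), with Benjamini-Hochberg adjustment over all genes and a threshold of 0.05.

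Genes were sorted by these calls. A total of 168 genes (1.1%) kept the difference, meaning that they passed in both comparisons with the same sign: 111 were higher and 57 lower in UPPL. Another 84 (0.552%) reversed it, passing in both with opposite signs: 72 were higher in UPPL1541 tumours and lower in UPPL primary tumours, and 12 the other way round. The difference was lost for 371 genes (2.44%), which passed in primary tumours, did not pass in line-derived tumours and passed for the difference of differences against the primary sign. Of the lost genes 76 were higher and 295 lower in UPPL primary tumours, and in 363 the sign of the line-derived estimate was opposite to the primary sign. In 687 genes (4.51%) the difference was called only between the line-derived tumours, 634 higher and 53 lower in UPPL1541, and the difference of differences passed too. Where such genes are said to differ only after transplantation, this is in contrast to the primary tumours and says nothing of the cultures. The remaining primary calls, 2333 genes (15.3%), did not pass in line-derived tumours and did not pass for the difference of differences, so for them neither keeping nor losing was shown. In 865 of these 2333 genes the line-derived estimate had the opposite sign. A further 306 genes (2.01%) passed only between the line-derived tumours with no call for the difference of differences, and 249 (1.64%) passed for the difference of differences alone.

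**Figure D1:**
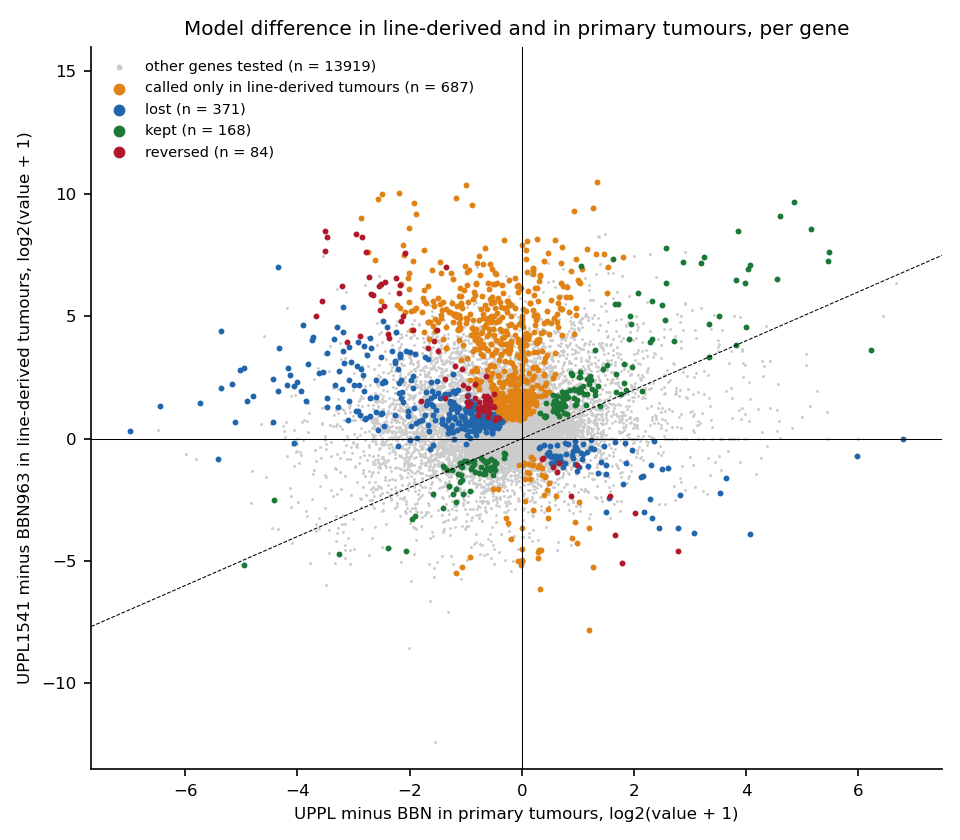
Each point is 1 of 15229 genes, with the UPPL minus BBN log2 difference in primary tumours on the horizontal axis and the UPPL1541 minus BBN963 log2 difference in line-derived tumours on the vertical axis. Colours mark genes that kept (168), lost (371) or reversed (84) the difference or had it called only between line-derived tumours (687), and the dashed line marks equal differences. The pair of differences is close to unrelated across genes (Pearson r 0.076); the kept genes lie in the quadrants of equal sign, and all 84 reversed, 363 of the 371 lost and 475 of the 687 line-derived-only genes lie in those of opposite sign.

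The excess of genes higher in UPPL1541 depended on the scaling. The deposited values are scaled to the 75th percentile of each library, and with them the median difference over all genes was 0.33 in line-derived tumours, -0.22 in primary tumours and 0.55 for the difference of differences (log2). Quantile normalization brought the last of these to 0.00488, and it then passed for 406 genes in favour of UPPL and 354 in favour of BBN. Median-of-ratios scaling left a median of 0.255 and gave 701 and 326 genes, and edgeR on recovered reads left 0.225 and gave 194 and 218. Between line-derived tumours quantile normalization gave 576 higher and 469 lower. In primary tumours the split of higher and lower calls was 1167 and 1231 with quantile normalization, 1347 and 1457 with median-of-ratios scaling and 1424 and 1376 in edgeR. The number of genes that moved in a direction is thus reported with the scaling, and a log2 difference of differences below 0.55 is below the shift shared by all genes.

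The libraries held 9.29 to 17.9 M recovered reads, and 11681 to 15339 genes were above 0. The most frequent low value was 2 to 19 reads among the 26 libraries, and it was highest, 19 reads or 24.1 deposited units, in BBN963 tumour 1. A value of 0 there may thus hide a low level. The most frequent low value is no lower limit, as Trpm6 stood at 13.959 deposited units in that tumour. Where a group is listed at 0 the values are given with no fold. Both BBN963 tumours were at 0 for 1631 tested genes, among them 295 of the 1243 genes with a difference of differences in favour of UPPL. Without BBN963 tumour 1, 239 genes differed between line-derived tumours, 296 passed for the difference of differences, 30 kept, 85 lost and 12 reversed the difference, and 143 had it only after transplantation. Of the genes named here that passed, 47 of 57 no longer did so between the line-derived tumours without it, and 35 of 60 for the difference of differences. Without BBN963 tumour 2 these were 33 of 57 and 17 of 60, and in edgeR 31 of 57 and 25 of 60. Where nothing says that tumours of 1 line grew in separate animals, the p-values measure the spread between these samples only. The spread of each gene was shared by all groups, so line-derived p-values also rest on the spread between primary tumours. With the spread estimated per tumour kind, 176 of the 371 lost genes were still lost, and 232 genes reversed, beside 84. The sorting into lost and reversed thus depended on that choice.

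Trp53, which encodes p53 and is floxed in UPPL, checked the labels and kept its difference. Trp53 stood at 139, 75.6, 68.3 and 90.5 in the UPPL1541 tumours, against 401 and 649.5 in the BBN963 tumours. Primary Trp53 levels were 30.4 to 158 in UPPL tumours (median 59.8), against 796 to 2266 in BBN tumours (median 1578). In both comparisons no UPPL value reached any BBN value. The line-derived difference was log2 -2.49, SE 0.54, adjusted p = 0.0049, the primary difference log2 -4.41, SE 0.28, adjusted p = 2.33e-11, and the difference of differences log2 1.92, SE 0.61, adjusted p = 0.046. Of the 13 kept genes whose difference of differences passed, Trp53 was the only one with a smaller difference after transplantation. The BBN963 tumours lay below every BBN primary tumour in Trp53, and the gene stood at 50.4 in the UPPL1541 culture and 3017 in the BBN963 culture. Trp53 did not pass between line-derived tumours without BBN963 tumour 2 (adjusted p 0.0781). In 24 of 39 alternatives the difference of differences of Trp53 did not pass, with adjusted p = 0.479 with quantile normalization and 0.302 without BBN963 tumour 1. Upk3a, whose promoter drives Cre, stood at 15.5, 56.1, 39.7 and 29.8 in the UPPL1541 tumours, against 0 in both BBN963 tumours, and the primary range was 0 to 8508 in UPPL tumours (median 668), against 0 to 635 in BBN tumours (median 5.2). The groups overlapped in primary tumours and no Upk3a comparison passed (primary adjusted p = 0.162; line-derived adjusted p = 0.382). These values sum over exons, so loss of floxed exons need not bring a gene to 0.

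Of 25 p53 target genes tested, 1 was higher and 1 lower between line-derived tumours, 2 were higher and 3 lower in UPPL primary tumours, beside 5.94% and 13.5% of all genes, and 1 passed in each direction for the difference of differences. Cdkn1a, the cell cycle inhibitor that p53 induces, stood at 2351, 2725, 1705 and 2161 in the UPPL1541 tumours, against 4193 and 5528 in the BBN963 tumours, with overlapping primary groups, and gave a difference of differences of log2 -1.72, SE 0.63, adjusted p = 0.079. Gdf15, a stress-induced cytokine gene, reversed. Gdf15 stood at 1.19, 9.13, 0 and 10.7 in the UPPL1541 tumours, against 93.9 and 96.8 in the BBN963 tumours. Primary Gdf15 levels were 14.7 to 174 in UPPL tumours (median 57.9), against 0 to 95.8 in BBN tumours (median 10.1). The UPPL1541 tumours were all below both BBN963 tumours, while UPPL had the higher median in primary tumours. Gdf15 gave log2 -4.58, SE 1.40, adjusted p = 0.041 between line-derived tumours, log2 2.78, SE 0.72, adjusted p = 0.00857 between primary tumours and log2 -7.36, SE 1.57, adjusted p = 0.00518 for the difference of differences. Sesn1, a stress-induced regulator of mTOR signalling, passed for the difference of differences alone (log2 2.73, SE 0.81, adjusted p = 0.033), with 1035, 1463, 1263 and 1314 in the UPPL1541 tumours, against 266 and 379 in the BBN963 tumours. Gdf15 did not pass between line-derived tumours without BBN963 tumour 1 (adjusted p 0.237), without BBN963 tumour 2 (0.169), and without UPPL1541 tumour 1 or 3 (0.0955 to 0.107). Sesn1 did not pass for the difference of differences without BBN963 tumour 1 (adjusted p 0.214), without BBN963 tumour 2 (0.0799), and without UPPL1541 tumour 1, 2, 3 or 4 (0.0503 to 0.0575). Sesn1 did not pass for the difference of differences with quantile normalization (adjusted p 0.0685) and with median-of-ratios scaling (0.0663).

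Among the genes that kept the difference, 3 posterior HoxA genes were higher in UPPL. Hoxa9, Hoxa10 and Hoxa11 encode neighbouring homeodomain factors that pattern the urogenital tract and limbs. Hoxa9 stood at 370.4, 382, 343 and 406 in the UPPL1541 tumours, against 0 in both BBN963 tumours. Primary Hoxa9 levels were 441 to 1151 in UPPL tumours (median 587), against 0 to 481 in BBN tumours (median 8.1). Hoxa10 stood at 675, 947, 821 and 851 in the UPPL1541 tumours, against 0 in both BBN963 tumours. Primary Hoxa10 levels were 811 to 3237 in UPPL tumours (median 1197), against 0 to 876 in BBN tumours (median 67.5). Every UPPL1541 tumour was above both BBN963 tumours, which were at 0 for both genes, and the lowest UPPL primary tumour lay close to the highest BBN primary tumour. Hoxa11 stood at 447, 763, 476 and 556 in the UPPL1541 tumours, against 0 in both BBN963 tumours. Primary Hoxa11 levels were 509 to 1514 in UPPL tumours (median 769.5), against 0 to 598 in BBN tumours (median 33). The line-derived differences of Hoxa9 (adjusted p = 0.00877), Hoxa10 (adjusted p = 0.00508) and Hoxa11 (adjusted p = 0.00201) passed, and the primary differences were 5.15, 4.86 and 4.60 on the log2 scale (adjusted p 0.00107 to 0.00276). Their difference of differences did not pass (adjusted p 0.149 to 0.348). The same pattern held in single libraries: Hoxa9, Hoxa10 and Hoxa11 stood at 654, 955 and 575 in the UPPL1541 culture and at 0 in the BBN963 culture and in the primary tumour numbered BBN963. Hoxa9 and Hoxa10 did not pass between line-derived tumours without BBN963 tumour 1 (adjusted p 0.0748 to 0.104) and Hoxa9 without BBN963 tumour 2 (0.0576).

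Other kept genes that were higher in UPPL included Ctnnd2, which encodes delta-catenin, a junction protein best known from neurons. Ctnnd2 stood at 515, 313, 226 and 506 in the UPPL1541 tumours, against 0 and 2.45 in the BBN963 tumours. Primary Ctnnd2 levels were 104 to 1418 in UPPL tumours (median 255), against 0 to 169 in BBN tumours (median 10.1). UPPL1541 tumours lay far above both BBN963 tumours, and primary groups overlapped only at the edges. Ctnnd2 gave log2 7.64, SE 1.60, adjusted p = 0.00407 between line-derived tumours and log2 5.48, SE 0.83, adjusted p = 7.34e-05 between primary tumours, and it stood at 185 in the UPPL1541 culture and 0 in the BBN963 culture. Nrn1, which encodes the neurite outgrowth protein neuritin, stood at 217, 126, 108 and 179 in the UPPL1541 tumours, against 0 in both BBN963 tumours (adjusted p = 0.0155), and its primary difference was log2 5.45, SE 0.96, adjusted p = 0.000367. Lancl3, a gene of the LanC-like family, kept a higher level as well (133, 59.97, 84.4 and 105 in the UPPL1541 tumours, against 0 in both BBN963 tumours; adjusted p = 0.00925; primary log2 4.55, SE 0.80, adjusted p = 0.000351). For these genes the difference of differences did not pass (adjusted p 0.472 to 0.616). Ctnnd2, Nrn1 and Lancl3 did not pass between line-derived tumours without BBN963 tumour 1 (adjusted p 0.106 to 0.14) and Nrn1 and Lancl3 without BBN963 tumour 2 (0.0601 to 0.0872).

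Genes that kept a lower level in UPPL included members of the interferon response. Igtp and Irgm2 encode GTPases that interferon gamma induces in mouse cells and that act against intracellular parasites. Igtp stood at 153, 109.5, 1581 and 159.6 in the UPPL1541 tumours, against 6934 and 6529 in the BBN963 tumours. Primary Igtp levels were 0 to 304 in UPPL tumours (median 45), against 68.7 to 940.1 in BBN tumours (median 511). UPPL1541 tumour 3 stood above the other tumours of its line and below both BBN963 tumours. Irgm2 stood at 159, 130.4, 1183 and 263 in the UPPL1541 tumours, against 3364 and 2346 in the BBN963 tumours. Primary Irgm2 levels were 23.4 to 344 in UPPL tumours (median 91.8), against 95.7 to 672 in BBN tumours (median 419). Igtp gave log2 -4.71, SE 1.35, adjusted p = 0.0304 between line-derived tumours and log2 -3.26, SE 0.70, adjusted p = 0.00201 between primary tumours, and Irgm2 gave log2 -3.30, SE 0.83, adjusted p = 0.0135 and log2 -1.96, SE 0.43, adjusted p = 0.00226. Irf1, an interferon-induced transcription factor, kept the difference too and was at 1327, 889, 1875 and 916 in the UPPL1541 tumours, against 3229.7 and 2612 in the BBN963 tumours (log2 -1.28, SE 0.36, adjusted p = 0.0291; primary log2 -1.25, SE 0.19, adjusted p = 7.1e-05). For these 3 genes the difference of differences did not pass (adjusted p 0.377 to 0.973). In the UPPL1541 and BBN963 cultures Igtp stood at 157 and 182.5, Irgm2 at 88.7 and 28, and Irf1 at 1415 and 1827. Igtp and Irf1 were thus within 2-fold there, and Irgm2 was higher in the UPPL1541 culture. Igtp, Irgm2 and Irf1 did not pass between line-derived tumours without BBN963 tumour 1 (adjusted p 0.172 to 0.273), without BBN963 tumour 2 (0.0578 to 0.135), and Igtp without UPPL1541 tumour 1, 2 or 4 (0.0671 to 0.0723). Irf1 did not pass between line-derived tumours without UPPL1541 tumour 2 or 4 (adjusted p 0.0721 to 0.0759).

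The promoters of Igtp and Irgm2 are shown because both genes kept the difference and hold binding motifs of interferon-activated factors. The windows run from 250 bases before to 50 bases after the start in RefSeq on GRCm38.p6, and capitals mark TTCNNNGAA, the core of the gamma-activated site, followed by the core of the interferon-stimulated response element, which is GAAA, any 2 bases and GAAA again. Igtp lies at chr11:58199306-58199605, plus strand, and Irgm2 at chr11:58214727-58215026, plus strand.
Igtp: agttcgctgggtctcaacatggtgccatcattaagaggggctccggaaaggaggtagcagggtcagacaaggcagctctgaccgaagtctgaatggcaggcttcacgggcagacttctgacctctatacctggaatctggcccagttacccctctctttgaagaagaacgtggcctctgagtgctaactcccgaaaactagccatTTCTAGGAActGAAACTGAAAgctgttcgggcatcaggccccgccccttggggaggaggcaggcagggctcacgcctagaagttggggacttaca
Irgm2: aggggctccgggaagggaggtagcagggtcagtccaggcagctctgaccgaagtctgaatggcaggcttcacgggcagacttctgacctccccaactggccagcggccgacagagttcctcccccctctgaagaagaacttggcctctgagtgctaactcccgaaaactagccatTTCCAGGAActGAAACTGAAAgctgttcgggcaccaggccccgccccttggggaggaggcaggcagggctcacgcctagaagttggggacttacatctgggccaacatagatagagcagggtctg
In both windows 1 copy of each motif was found, on either strand searched, and the copies stood 2 bases apart without overlap. Of 32851 such windows for 27025 genes, 8.3% held TTCNNNGAA and 3.44% held the interferon-stimulated core. A match describes the sequence and shows no binding.

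Of 26 interferon response genes tested, 5 were lower and 0 higher in UPPL1541 than in BBN963 tumours, and 16 were lower and 0 higher in UPPL than in BBN primary tumours, beside 1.24% and 13.5% of all genes lower. The median log2 difference of the interferon response genes was -2.87 in line-derived and -2.23 in primary tumours. Irf1 and Igtp were among those that kept the difference. Cxcl11, a T cell chemokine gene, had it only after transplantation, with 0, 0, 9.93 and 0 in the UPPL1541 tumours, against 139.6 and 31.9 in the BBN963 tumours (log2 -5.22, SE 1.12, adjusted p = 0.00484), and its difference of differences was the single one that passed in the list (adjusted p = 0.0387). Summed over the list, levels were 5848 to 34610 (median 6875) in the UPPL1541 tumours, against 59610 to 74070 in the BBN963 tumours, and 2662 to 18060 (median 4379) in UPPL primary tumours, against 5636 to 25580 (median 17480) in BBN primary tumours. UPPL1541 tumour 3 made up the top of its group (34610); it was still below both BBN963 tumours. Without BBN963 tumour 1 no interferon response gene passed between line-derived tumours (0 of 26), without BBN963 tumour 2 there were 2, and quantile normalization gave 10. Cxcl11 did not pass for the difference of differences without BBN963 tumour 1 (adjusted p 0.324) and without UPPL1541 tumour 1, 2 or 4 (0.0734 to 0.0846).

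The MHC class I presentation genes that passed were lower in UPPL in both comparisons, and 1 member passed in both. Of 17 genes tested, 6 were lower and 0 higher in UPPL1541 tumours, and 5 were lower and 0 higher in UPPL primary tumours, beside 1.24% and 13.5% of all genes lower. Psmb10, an immunoproteasome subunit gene, kept the difference, and H2-T23, which encodes a class Ib molecule, had it only after transplantation. H2-T23 stood at 1284, 1638, 2624 and 1293 in the UPPL1541 tumours, against 6704 and 6888 in the BBN963 tumours, so that all 4 UPPL1541 tumours were lower, while the primary groups overlapped (log2 -2.06, SE 0.44, adjusted p = 0.0044; difference of differences log2 -1.55, SE 0.49, adjusted p = 0.0472). B2m, the light chain of class I molecules, was at 9183, 8695, 59340 and 6504 in the UPPL1541 tumours, against 68710 and 80180 in the BBN963 tumours, and UPPL1541 tumour 3 stood nearest to the BBN963 tumours. B2m passed between primary tumours (log2 -1.86, SE 0.48, adjusted p = 0.00853) and gave log2 -2.49, SE 0.93, adjusted p = 0.0981 between line-derived tumours. Tap1, a peptide transporter subunit gene, was at 484, 464, 2527 and 423 in the UPPL1541 tumours, against 5812 and 4509.8 in the BBN963 tumours (log2 -2.87, SE 0.80, adjusted p = 0.0263) and gave log2 -1.02, SE 0.41, adjusted p = 0.0827 between primary tumours. H2-T22, another class Ib gene, was at 351, 97.5, 931 and 140.0 in the UPPL1541 tumours, against 1707 and 2166.1 in the BBN963 tumours (log2 -2.89, SE 0.72, adjusted p = 0.0128). Class I genes have near-identical copies, so reads may be split among H2-T23, H2-T22 and related genes. Summed MHC class I presentation genes stood at 25580 to 143000 (median 32050) in the UPPL1541 tumours, against 176300 to 192300 in the BBN963 tumours, and 14520 to 44830 (median 19740) in UPPL primary tumours, against 13570 to 95060 (median 43750) in BBN primary tumours. H2-T23, Tap1 and H2-T22 did not pass between line-derived tumours without BBN963 tumour 1 (adjusted p 0.0654 to 0.223), Tap1 and H2-T22 without BBN963 tumour 2 (0.0997 to 0.103), and Tap1 without UPPL1541 tumour 1, 2 or 4 (0.0586 to 0.0673). H2-T23 did not pass for the difference of differences without BBN963 tumour 1 (adjusted p 0.199), without BBN963 tumour 2 (0.15), and without UPPL1541 tumour 1, 2 or 4 (0.0687 to 0.0971). H2-T23 did not pass for the difference of differences with quantile normalization (adjusted p 0.0546) and without 9 single primary tumours in turn (0.0524 to 0.0584). Without BBN963 tumour 1 no member of the list passed between line-derived tumours.

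Prss12, Tshz3 and Atf5 were further genes that kept a lower level in UPPL. Prss12 encodes neurotrypsin, a serine protease of synapses. Prss12 stood at 15.5, 18.3, 9.93 and 0 in the UPPL1541 tumours, against 302 and 255 in the BBN963 tumours. Primary Prss12 levels were 0 to 34.6 in UPPL tumours (median 7.14), against 47.3 to 809.8 in BBN tumours (median 265). No UPPL value reached a BBN value in either comparison, and the log2 differences were nearly equal, at log2 -5.18, SE 1.40, adjusted p = 0.0219 and log2 -4.95, SE 0.73, adjusted p = 5.84e-05. Tshz3, a zinc finger factor needed for smooth muscle of the ureter in mouse, stood at 45.4, 22.2, 36 and 71.5 in the UPPL1541 tumours, against 509 and 259.8 in the BBN963 tumours (log2 -3.15, SE 0.86, adjusted p = 0.024; primary log2 -1.8956, SE 0.45, adjusted p = 0.00405). Atf5, a stress-responsive transcription factor, stood at 453, 383, 365 and 394 in the UPPL1541 tumours, against 2175 and 1714 in the BBN963 tumours (log2 -2.28, SE 0.71, adjusted p = 0.0461; primary log2 -1.58, SE 0.37, adjusted p = 0.00386). The 6 largest kept differences in this direction also included Trp53, Igtp and Irgm2. Prss12, Tshz3 and Atf5 did not pass between line-derived tumours without BBN963 tumour 1 (adjusted p 0.182 to 0.304), without BBN963 tumour 2 (0.0624 to 0.144), and Atf5 without UPPL1541 tumour 1, 2, 3 or 4 (0.0754 to 0.0821). Tshz3 did not pass between line-derived tumours without UPPL1541 tumour 2 (adjusted p 0.0566), Prss12 without UPPL1541 tumour 4 (0.07), and Atf5 without 7 single primary tumours in turn (0.0502 to 0.0525).

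**Figure D2:**
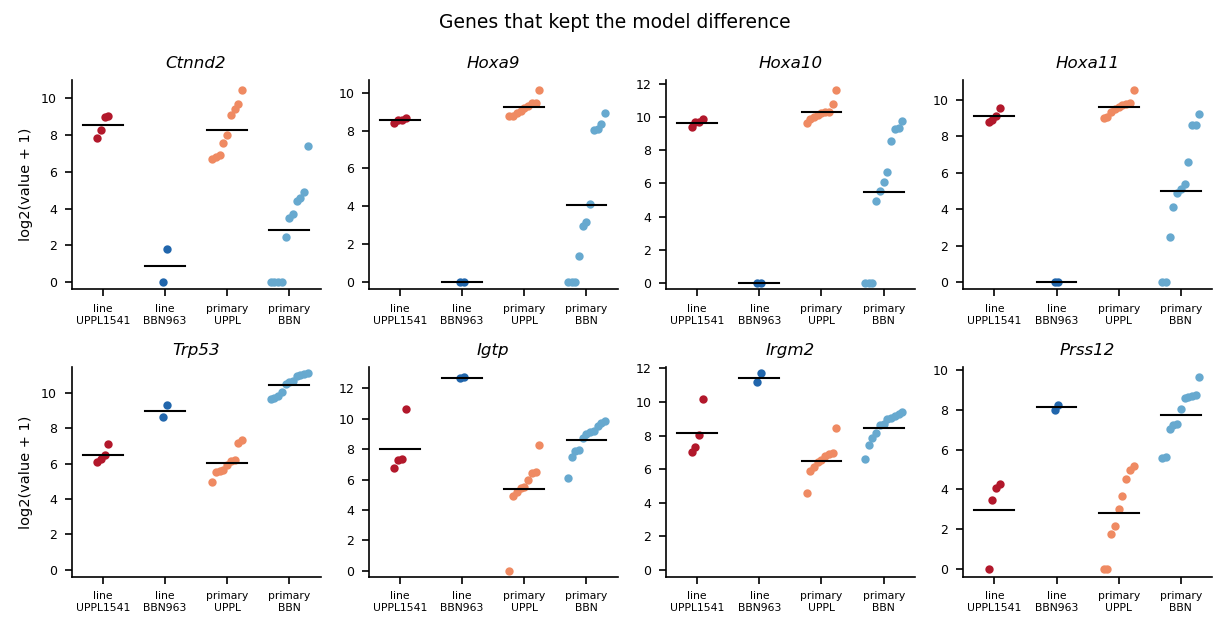
Deposited units on a log2(value + 1) axis for 8 genes that kept the difference, 1 point a library, in UPPL1541 tumours (4), BBN963 tumours (2), UPPL primary tumours (9) and BBN primary tumours (11), from left to right; bars are the mean of the log2 values. Ctnnd2, Hoxa9, Hoxa10 and Hoxa11 are higher in UPPL within both tumour kinds, and Trp53, Igtp, Irgm2 and Prss12 are lower in both.

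Most reversed genes were lower in UPPL primary tumours and higher in UPPL1541 tumours, the directions with more calls over all genes. Of all genes 13.5% were lower and 5.94% higher in UPPL primary tumours, and 6.93% were higher and 1.24% lower in UPPL1541 tumours. The split of reversed genes by direction is thus not read as a trait of reversal. Vnn1, which encodes the pantetheinase vanin-1, was an example with high levels. Vnn1 stood at 781, 806, 947 and 703 in the UPPL1541 tumours, against 0 and 14.7 in the BBN963 tumours. Primary Vnn1 levels were 0 to 685 in UPPL tumours (median 70.6), against 22.6 to 2404 in BBN tumours (median 831). The UPPL1541 tumours were all far above the BBN963 tumours, against a median in primary tumours that was lower in UPPL. Vnn1 gave log2 7.67, SE 1.75, adjusted p = 0.00776 between line-derived tumours, log2 -3.50, SE 0.91, adjusted p = 0.00817 between primary tumours and log2 11.17, SE 1.97, adjusted p = 0.0011 for the difference of differences. Skint1, which in mouse skin and thymus serves the selection of epidermal gamma delta T cells, stood at 342, 391, 305 and 212 in the UPPL1541 tumours, against 0 in both BBN963 tumours (adjusted p = 0.000606). Primary Skint1 levels were 0 to 37.4 in UPPL tumours (median 9.18), against 11.8 to 398 in BBN tumours (median 59.7) (log2 -2.84, SE 0.73, adjusted p = 0.00759), so the groups overlapped there and not among line-derived tumours, and the difference of differences gave adjusted p = 8.59e-05. Skint1 passed all 3 tests under each single library left out and under each scaling. Vnn1 did not pass between line-derived tumours without BBN963 tumour 1 (adjusted p 0.222).

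The other 4 genes of the 6 largest reversals in this direction were at 0 in both BBN963 tumours. Col10a1, the collagen X chain of hypertrophic cartilage, stood at 444, 186, 419.7 and 470.4 in the UPPL1541 tumours, against 0 in both BBN963 tumours (line-derived adjusted p = 0.00775), and its primary range was 0 to 41.1 in UPPL tumours (median 7.18), against 0 to 824 in BBN tumours (median 87.4) (log2 -3.50, SE 1.004, adjusted p = 0.0156). Ntrk2, the receptor of brain-derived neurotrophic factor, stood at 354, 356, 192 and 323 in the UPPL1541 tumours, against 0 in both BBN963 tumours (adjusted p = 0.00925), and at 0 in every UPPL tumour, against 0 to 1527 in BBN tumours (median 8.84) (adjusted p = 0.0163). The UPPL1541 tumours were thus well above 0 for a gene that no UPPL primary tumour showed. Ddit4l, an inhibitor of mTOR signalling, stood at 476, 183, 319 and 397 in the UPPL1541 tumours, against 0 in both BBN963 tumours, and at 0 to 17 in UPPL tumours (median 0), against 0 to 283 in BBN tumours (median 18.9) (log2 -2.95, SE 0.95, adjusted p = 0.0287). Kcnh2, a potassium channel gene, stood at 185, 177, 171 and 258 in the UPPL1541 tumours, against 0 in both BBN963 tumours, and at 0 to 4.995 in UPPL tumours (median 0), against 0 to 257 in BBN tumours (median 13.9) (log2 -2.77, SE 0.89, adjusted p = 0.0299). For Col10a1, Ntrk2, Ddit4l and Kcnh2 the difference of differences had adjusted p from 0.00145 to 0.0018. In cultures Col10a1 was at 0 in the UPPL1541 culture and 15.8 in the BBN963 culture, and Ntrk2 was at 0 in both, so that neither gene's level in UPPL1541 tumours was present in the cultured line. Col10a1, Ntrk2, Ddit4l and Kcnh2 did not pass between line-derived tumours without BBN963 tumour 1 (adjusted p 0.0794 to 0.107) and Col10a1, Ntrk2 and Kcnh2 without BBN963 tumour 2 (0.0514 to 0.0626). Col10a1 and Ddit4l did not pass between primary tumours with quantile normalization (adjusted p 0.0522 to 0.0662), Ddit4l without BBN964 (0.0514), and Kcnh2 without BBN969 and BBN973 (0.0512 to 0.0515).

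The 12 genes that reversed the other way were higher in UPPL primary tumours and lower in UPPL1541 tumours. Sprr2a1 encodes a small proline-rich protein of the cornified envelope. Sprr2a1 stood at 4449, 3568, 2968 and 2174 in the UPPL1541 tumours, against 46680 and 51960 in the BBN963 tumours. Primary Sprr2a1 levels were 90350 to 328500 in UPPL tumours (median 155800), against 20760 to 140500 in BBN tumours (median 56620). All 4 UPPL1541 tumours lay below every other tumour of the 26, while the UPPL primary tumours had the higher median. Sprr2a1 gave log2 -3.95, SE 0.65, adjusted p = 0.000397, log2 1.66, SE 0.34, adjusted p = 0.00124 and log2 -5.61, SE 0.73, adjusted p = 2.57e-05 for the line-derived, primary and combined contrasts. Reads of the near-identical Sprr2 copies may be split among them. Aldh1a7, an aldehyde dehydrogenase gene close in sequence to Aldh1a1, was at 5.97, 6.52, 21.1 and 0 in the UPPL1541 tumours, against 108 and 357 in the BBN963 tumours. Primary Aldh1a7 levels were 788 to 5423 in UPPL tumours (median 3587), against 197 to 2322 in BBN tumours (median 937), and the contrasts were log2 -5.08, SE 0.88, adjusted p = 0.00076, log2 1.78, SE 0.46, adjusted p = 0.0079 and log2 -6.86, SE 0.996, adjusted p = 0.000116. The Aldh1a7 and Sprr2a1 calls passed in all 3 contrasts with any single library left out and under each scaling.

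Ptgr1, the reductase that inactivates prostaglandins and leukotriene B4, followed the same course, with 417, 787, 355 and 422 in the UPPL1541 tumours, against 2198 and 2625 in the BBN963 tumours. Primary Ptgr1 levels were 2701 to 10850 in UPPL tumours (median 5936), against 587 to 5351 in BBN tumours (median 1934). Ptgr1 gave log2 -2.35, SE 0.61, adjusted p = 0.0183 between line-derived and log2 1.57, SE 0.32, adjusted p = 0.00123 between primary tumours. Sh3gl2, which encodes endophilin A1 of vesicle uptake, stood at 33.5, 53.5, 4.97 and 29.8 in the UPPL1541 tumours, against 258 and 156 in the BBN963 tumours, and its contrasts were log2 -3.05, SE 0.82, adjusted p = 0.021 and log2 2.01, SE 0.43, adjusted p = 0.00171. Hyal1, a lysosomal hyaluronidase gene, stood at 228, 58.5, 119 and 155 in the UPPL1541 tumours, against 876 and 469 in the BBN963 tumours, with log2 -2.34, SE 0.48, adjusted p = 0.00345 and log2 0.88, SE 0.25, adjusted p = 0.0149. Capn1, the large subunit of calpain-1, was at 1708, 1848, 1812 and 1848 in the UPPL1541 tumours, against 3418 and 4238 in the BBN963 tumours, with no overlap and a tight spread, and gave log2 -1.08, SE 0.34, adjusted p = 0.0487 and log2 0.98, SE 0.18, adjusted p = 0.000483. The differences of differences were -3.92 for Ptgr1, -5.07 for Sh3gl2, -3.22 for Hyal1 and -2.05 for Capn1 (adjusted p 0.00071 to 0.0018) and passed in every alternative run. Ptgr1, Sh3gl2, Hyal1 and Capn1 did not pass between line-derived tumours without BBN963 tumour 1 (adjusted p 0.13 to 0.237), Ptgr1, Sh3gl2 and Capn1 without BBN963 tumour 2 (0.0662 to 0.275), and Capn1 without UPPL1541 tumour 1, 2, 3 or 4 (0.0743 to 0.0972). Sh3gl2 did not pass between line-derived tumours without UPPL1541 tumour 3 (adjusted p 0.0665) and Capn1 without 8 single primary tumours in turn (0.0504 to 0.0553).

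**Figure D3:**
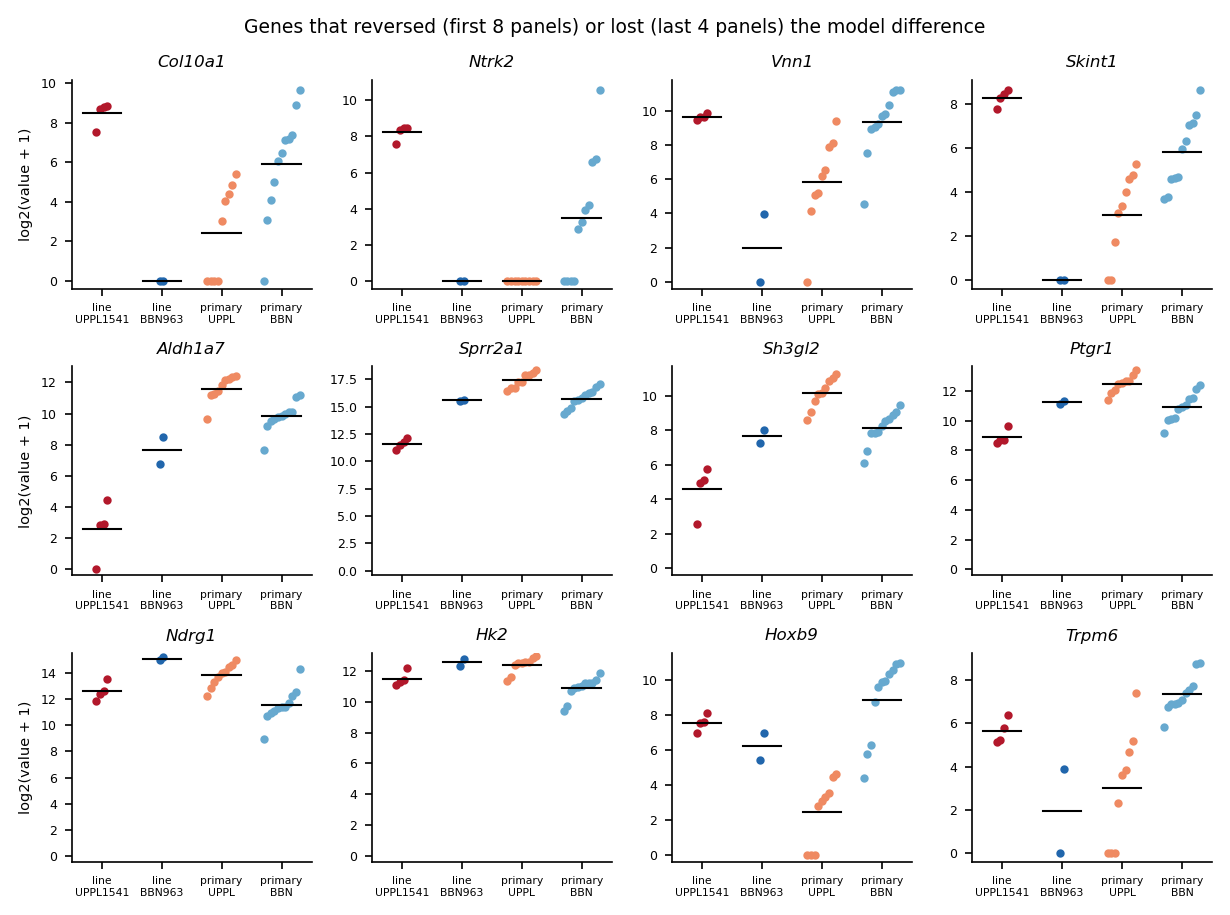
Deposited units on a log2(value + 1) axis for 8 genes that reversed the difference (Col10a1, Ntrk2, Vnn1, Skint1, Aldh1a7, Sprr2a1, Sh3gl2, Ptgr1) and 4 that lost it (Ndrg1, Hk2, Hoxb9, Trpm6), 1 point a library, with UPPL1541 left of BBN963 tumours and UPPL left of BBN primary tumours; bars are the mean of the log2 values. The first 4 reversed genes are higher in UPPL1541 and lower in UPPL primary tumours, the next 4 are the opposite, and Hoxb9 overlaps between the line-derived groups (123 to 281 and 41.9 to 126).

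Hypoxia and glycolysis genes held more lost differences than any other of the 30 gene lists examined. Of 18 hypoxia and glycolysis genes tested, 1 was lower and 0 higher in UPPL1541 tumours (1.24% and 6.93% of all genes). In UPPL primary tumours 7 were higher and 0 lower (5.94% and 13.5% of all genes). For the difference of differences 5 passed, all in favour of BBN (1.06% of all genes did). The 5 that lost the difference were Hk2, Aldoa, Ndrg1, Bnip3 and Egln3. Ndrg1, a stress-response gene induced by low oxygen, stood at 11650, 6111, 3670.3 and 5460 in the UPPL1541 tumours, against 31360 and 37380 in the BBN963 tumours. Primary Ndrg1 levels were 4870 to 31730 in UPPL tumours (median 16430), against 492 to 20360 in BBN tumours (median 2616). All 4 UPPL1541 tumours were below both BBN963 tumours, and BBN963 tumour 2 was above every primary tumour. In the primary tumours that carry the lines' numbers, Ndrg1 stood at 22550 in UPPL1541 and 20360 in BBN963, the highest BBN primary tumour. Ndrg1 gave log2 -2.48, SE 0.85, adjusted p = 0.0687 between line-derived tumours, log2 2.29, SE 0.44, adjusted p = 0.000776 between primary tumours and log2 -4.77, SE 0.95, adjusted p = 0.00318 for the difference of differences. Hk2, the first enzyme of glycolysis, stood at 4836, 2486, 2194 and 2704 in the UPPL1541 tumours, against 7188 and 5288 in the BBN963 tumours, with primary levels of 2636 to 8241 in UPPL tumours (median 5856), against 690.3 to 3761 in BBN tumours (median 2119). Its contrasts were log2 -1.08, SE 0.50, adjusted p = 0.184, log2 1.498, SE 0.26, adjusted p = 0.000315 and log2 -2.58, SE 0.56, adjusted p = 0.00581. Hk2 was at 5856 in the primary tumour UPPL1541 and 3761 in BBN963, again the highest BBN primary tumour. Whether the loss reflects that single tumour was not tested. Egln3, an oxygen sensor of the HIF pathway, gave log2 -3.01, SE 0.98, adjusted p = 0.0561, log2 1.51, SE 0.51, adjusted p = 0.0379 and log2 -4.52, SE 1.11, adjusted p = 0.0121, Bnip3, a mitophagy receptor gene, -1.55, 2.12 and log2 -3.66, SE 1.08, adjusted p = 0.0332, and Aldoa, a glycolytic aldolase gene, -1.003, 0.57 and log2 -1.57, SE 0.42, adjusted p = 0.0192.

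Vegfa, the vessel growth factor gene, had 2631, 1606, 1016 and 1475 in the UPPL1541 tumours, against 3888 and 3199.8 in the BBN963 tumours and gave log2 1.15, SE 0.36, adjusted p = 0.0251 between primary tumours and log2 -2.31, SE 0.78, adjusted p = 0.061 for the difference of differences. Hif1a, the oxygen-regulated factor itself, did not pass in any contrast (16870, 14640, 14530 and 12370 in the UPPL1541 tumours, against 15730 and 12360 in the BBN963 tumours; difference of differences log2 -0.21, SE 0.47, adjusted p = 0.816). Summed hypoxia and glycolysis genes stood at 72520 to 110800 (median 91700) in the UPPL1541 tumours, against 199300 to 234800 in the BBN963 tumours, and 74270 to 156500 (median 109600) in UPPL primary tumours, against 36440 to 162500 (median 69210) in BBN primary tumours, so the BBN963 tumours held more than every other library. For the list, the count for the difference of differences was 1 without BBN963 tumour 1, 2 without BBN963 tumour 2, 5 with quantile normalization and 9 with median-of-ratios scaling. Hk2 did not pass for the difference of differences without BBN963 tumour 1 (adjusted p 0.0781). Vegfa did not pass between primary tumours without UPPL1598 and UPPL1612 (adjusted p 0.0501 to 0.0539). It was at 3390 in the primary tumour UPPL1541 and 6751 in BBN963, the highest BBN primary tumour for this gene.

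Promoter windows of Hk2 and Egln3 are shown because both genes lost the difference with the hypoxia group; capitals mark ACGTG, the core of the hypoxia response element, on either strand (CACGT where it lies on the other strand). Both sequences read along the gene, from RefSeq on GRCm38.p6, with Hk2 at chr6:82774405-82774704, minus strand, and Egln3 at chr12:54203825-54204124, minus strand.
Hk2: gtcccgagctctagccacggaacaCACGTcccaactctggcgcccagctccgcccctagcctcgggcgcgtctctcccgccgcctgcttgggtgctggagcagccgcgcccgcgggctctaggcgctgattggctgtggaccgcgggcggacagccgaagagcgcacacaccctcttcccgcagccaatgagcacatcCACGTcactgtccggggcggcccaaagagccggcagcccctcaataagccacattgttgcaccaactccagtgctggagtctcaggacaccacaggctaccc
Egln3: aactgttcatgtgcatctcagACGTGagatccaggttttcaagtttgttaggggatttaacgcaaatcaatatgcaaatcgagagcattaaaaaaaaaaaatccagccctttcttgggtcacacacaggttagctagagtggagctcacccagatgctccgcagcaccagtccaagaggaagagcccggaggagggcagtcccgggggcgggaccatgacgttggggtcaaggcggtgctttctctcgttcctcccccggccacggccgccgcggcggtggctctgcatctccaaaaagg
The Hk2 window held 2 copies and the Egln3 window 1 copy, and 19.6% of all 32851 windows held at least 1. No statement on factor binding follows from such a match.

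The luminal and PPAR genes called between primary tumours were all higher in UPPL, and few members passed between line-derived tumours. Of 26 luminal urothelial markers tested, 1 was higher and 2 lower in UPPL1541 tumours, and 12 were higher and 0 lower in UPPL primary tumours, where 5.94% of all genes were higher. Upk1a, a uroplakin gene, stood at 10.8, 32.6, 54.6 and 48.8 in the UPPL1541 tumours, against 0 in both BBN963 tumours, with primary levels of 166 to 13820 in UPPL tumours (median 5191), against 0 to 1019 in BBN tumours (median 44.1). The highest UPPL1541 value lay below the lowest UPPL primary value, and both BBN963 tumours were at 0. Upk1a did not pass between line-derived tumours (adjusted p = 0.128) and passed between primary tumours (log2 6.44, SE 1.06, adjusted p = 0.000178). Upk1b, another uroplakin gene, stood at 4.78, 7.82, 6.21 and 16.7 in the UPPL1541 tumours, against 0 in both BBN963 tumours, with log2 4.42, SE 1.12, adjusted p = 0.00684 between primary tumours. Summed luminal urothelial markers were 21240 to 28790 (median 22770) in the UPPL1541 tumours, against 26960 to 41890 in the BBN963 tumours, and 78980 to 269400 (median 172600) in UPPL primary tumours, against 18290 to 108600 (median 82710) in BBN primary tumours. Of the defining markers, Upk1a, Upk1b, Upk2, Upk3a and Upk3b were at 0 in both BBN963 tumours, and Upk3b was at 0 in all UPPL1541 tumours. Foxa2, a factor of endodermal epithelium, passed only between line-derived tumours at low levels (2.39, 16.9, 21.1 and 11.9 in the UPPL1541 tumours, against 0 in both BBN963 tumours; adjusted p = 0.00223). Foxa2 did not pass between line-derived tumours with quantile normalization (adjusted p 0.193).

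Pparg, the nuclear receptor of luminal differentiation, had 45.4, 23.5, 36 and 21.4 in the UPPL1541 tumours, against 88.8 and 0 in the BBN963 tumours, and 1167 to 3218 in UPPL tumours (median 2076), against 22.5 to 878 in BBN tumours (median 454) in primary tumours. The line-derived levels were all at or below 88.8, and every UPPL primary tumour was above every BBN primary tumour. Pparg gave log2 1.72, SE 1.26, adjusted p = 0.449 between line-derived tumours and log2 2.92, SE 0.66, adjusted p = 0.00281 between primary tumours. Fabp4, a fatty acid binding protein gene that PPAR gamma induces, lost its difference. Fabp4 stood at 1202, 2246, 594 and 526 in the UPPL1541 tumours, against 1605 and 1521 in the BBN963 tumours. Primary Fabp4 levels were 6437 to 32420 in UPPL tumours (median 9917), against 0 to 1628 in BBN tumours (median 304). The line-derived groups overlapped, and UPPL primary tumours were all above BBN primary tumours. Fabp4 gave log2 -0.70, SE 1.76, adjusted p = 0.865 between line-derived tumours, log2 5.97, SE 0.91, adjusted p = 8.11e-05 between primary tumours and log2 -6.68, SE 1.99, adjusted p = 0.034 for the difference of differences. Fabp4 also marks fat cells. The 9 adipocyte markers other than Fabp4 summed to 377 to 637 (median 462) in the UPPL1541 tumours, against 430.2 to 1336 in the BBN963 tumours, and 154 to 417 (median 223) in UPPL primary tumours, against 114 to 472 (median 293) in BBN primary tumours, with Plin1, Lep and Retn at 0 in all UPPL primary tumours, so the primary groups overlapped in that sum. Of 18 PPAR target genes tested, 2 were higher and 0 lower in UPPL1541 tumours, and 8 were higher and 0 lower in UPPL primary tumours, where 5.94% of all genes were higher. Ehhadh, a peroxisomal enzyme gene of fatty acid breakdown, passed only between line-derived tumours, with 214, 209, 149 and 179.8 in the UPPL1541 tumours, against 0 in both BBN963 tumours (adjusted p = 0.000578; difference of differences adjusted p = 0.00862). Fabp4 and Ehhadh did not pass for the difference of differences without BBN963 tumour 1 (adjusted p 0.0688 to 0.175), Fabp4 without BBN963 tumour 2 (0.114), and without UPPL1541 tumour 1, 3 or 4 (0.056 to 0.0658).

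Oxidative defence genes gave a mixed picture. Hmox1, which encodes haem oxygenase, lost its difference. Hmox1 stood at 1885, 1554, 786 and 868 in the UPPL1541 tumours, against 2500 and 4591 in the BBN963 tumours. Primary Hmox1 levels were 1511 to 5188 in UPPL tumours (median 2941), against 139 to 1443 in BBN tumours (median 622). All UPPL1541 tumours were below both BBN963 tumours, and all UPPL primary tumours were above all BBN primary tumours. Hmox1 gave log2 -1.51, SE 0.67, adjusted p = 0.168 between line-derived tumours, log2 2.17, SE 0.35, adjusted p = 0.000143 between primary tumours and log2 -3.68, SE 0.76, adjusted p = 0.00397 for the difference of differences. Nfe2l2, which encodes NRF2, the factor that drives these genes, passed only between line-derived tumours, where it was lower in UPPL1541 (2325, 3295, 2765 and 2764 in the UPPL1541 tumours, against 5806 and 7083 in the BBN963 tumours; log2 -1.21, SE 0.31, adjusted p = 0.0149; difference of differences log2 -1.58, SE 0.35, adjusted p = 0.006). Gclc, a glutathione synthesis gene, was higher in UPPL1541 tumours (722, 618, 625 and 788 in the UPPL1541 tumours, against 133 and 188 in the BBN963 tumours; log2 2.11, SE 0.50, adjusted p = 0.00925), and its difference of differences was log2 1.68, SE 0.56, adjusted p = 0.056. Of 22 NRF2 and glutathione genes, 1 was higher and 1 lower in UPPL1541 tumours, and 7 were higher and 2 lower in UPPL primary tumours (5.94% and 13.5% of all genes). Nfe2l2 and Gclc did not pass between line-derived tumours without BBN963 tumour 1 (adjusted p 0.0909 to 0.16) and Nfe2l2 without BBN963 tumour 2 (0.137).

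Of the lost genes with the largest difference of differences in favour of UPPL, several were at or near 0 in UPPL primary tumours. Slc24a3, a sodium-calcium-potassium exchanger gene, stood at 785, 555, 745 and 988 in the UPPL1541 tumours, against 159.9 and 72.3 in the BBN963 tumours. Primary Slc24a3 levels were 0 to 202 in UPPL tumours (median 0), against 6.33 to 1220 in BBN tumours (median 158), so the order of the medians was opposite to that in line-derived tumours. Slc24a3 gave log2 2.79, SE 1.74, adjusted p = 0.345, log2 -5.02, SE 0.90, adjusted p = 0.000443 and log2 7.81, SE 1.96, adjusted p = 0.0136 for the line-derived, primary and combined contrasts. Lphn3, an adhesion receptor gene, was at 556, 92.6, 257 and 354 in the UPPL1541 tumours, against 35.5 and 34.3 in the BBN963 tumours, with log2 -4.95, SE 0.75, adjusted p = 7.1e-05 between primary tumours and log2 7.82, SE 1.62, adjusted p = 0.00418 for the difference of differences. Cyp2f2, a cytochrome P450 gene known from lung club cells, stood at 2064, 2349, 3305 and 1637 in the UPPL1541 tumours, against 0 and 304 in the BBN963 tumours (line-derived log2 7.02, SE 2.35, adjusted p = 0.0629; difference of differences log2 11.37, SE 2.65, adjusted p = 0.00911, and 7.25 without BBN963 tumour 1). Trpm6, a magnesium channel gene, stood at 34.6, 54.8, 36 and 82.2 in the UPPL1541 tumours, against 14 and 0 in the BBN963 tumours, with primary levels of 0 to 169 in UPPL tumours (median 11.3), against 56 to 451 in BBN tumours (median 136) (primary log2 -4.33, SE 0.79, adjusted p = 0.000487; difference of differences log2 8.01, SE 1.71, adjusted p = 0.00509). The 6 largest also included Evc2, a ciliary gene of Hedgehog signalling (difference of differences adjusted p = 0.0158), and Tnnt2, cardiac troponin T (difference of differences log2 7.86, SE 2.53, adjusted p = 0.0493, and 3.52 without BBN963 tumour 1 and 12.2 without tumour 2). Slc24a3, Cyp2f2, Evc2 and Tnnt2 did not pass for the difference of differences without BBN963 tumour 1 (adjusted p 0.074 to 0.573), Slc24a3, Trpm6 and Evc2 without BBN963 tumour 2 (0.065 to 0.0794), and Tnnt2 without UPPL1541 tumour 1, 2, 3 or 4 (0.0716 to 0.0869). Evc2 and Tnnt2 did not pass for the difference of differences with quantile normalization (adjusted p 0.0733 to 0.0921), Tnnt2 with median-of-ratios scaling (0.0664), and without 14 single primary tumours in turn (0.0524 to 0.0636).

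Lost genes with the opposite sign were high in UPPL primary tumours. Ghrh, which encodes growth hormone-releasing hormone, was listed at 0 in all 6 line-derived tumours and ranged over 0 to 2517 in UPPL tumours (median 161), against 0 to 2.52 in BBN tumours (median 0) in primary tumours (log2 6.80, SE 0.83, adjusted p = 9.38e-06; difference of differences adjusted p = 0.0192). Gcnt3, a glycosyltransferase gene that branches mucin glycans, stood at 3.58, 3.91, 33.5 and 1.19 in the UPPL1541 tumours, against 127 and 65 in the BBN963 tumours, with log2 3.08, SE 0.73, adjusted p = 0.00411 between primary tumours and log2 -6.91, SE 1.58, adjusted p = 0.00791 for the difference of differences. Cyp2b10, a drug-metabolizing cytochrome P450 gene with close paralogs, stood at 13.1, 27.4, 18.6 and 90.5 in the UPPL1541 tumours, against 527 and 364 in the BBN963 tumours (line-derived log2 -3.91, SE 1.70, adjusted p = 0.158; difference of differences log2 -7.98, SE 1.92, adjusted p = 0.0108). Slc4a8, a bicarbonate transporter gene, was at 5.97, 0, 9.93 and 13.1 in the UPPL1541 tumours, against 108 and 45.3 in the BBN963 tumours (line-derived log2 -3.63, SE 1.38, adjusted p = 0.102; difference of differences log2 -6.42, SE 1.55, adjusted p = 0.0112). Sprr2f, a cornified envelope gene, was at 462, 608, 356 and 113 in the UPPL1541 tumours, against 4066 and 4050.2 in the BBN963 tumours (line-derived log2 -3.63, SE 1.499, adjusted p = 0.135; difference of differences log2 -6.08, SE 1.69, adjusted p = 0.025). In the last 4 genes both BBN963 tumours lay above all UPPL1541 tumours although the line-derived difference did not pass (adjusted p 0.0885 to 0.158). Ghrh, Gcnt3, Cyp2b10, Slc4a8 and Sprr2f did not pass for the difference of differences without BBN963 tumour 1 (adjusted p 0.0883 to 0.142), Ghrh and Sprr2f without BBN963 tumour 2 (0.075 to 0.0908), and Sprr2f without UPPL1541 tumour 4 (0.0558).

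Among genes called only between line-derived tumours, the largest in favour of UPPL1541 were near 0 in most other groups. Trh, which encodes thyrotropin-releasing hormone, stood at 1044.2, 3129, 918 and 979 in the UPPL1541 tumours, against 0 in both BBN963 tumours (line-derived adjusted p = 1.28e-06). Primary Trh levels were 0 in every UPPL tumour, against 0 to 34.1 in BBN tumours (median 0), and both cultures were at 0. Trh passed with any single library left out and under each scaling. Pla2g2f, a secreted phospholipase gene of suprabasal skin, stood at 845, 1040.4, 765 and 1055 in the UPPL1541 tumours, against 0 in both BBN963 tumours (adjusted p = 0.00047), and Expi, a mouse gene of a WAP domain protein of mammary gland, at 1172, 1478, 934 and 672 in the UPPL1541 tumours, against 0 in both BBN963 tumours (adjusted p = 0.00373). Expi was also present in the cultured line, with 1984 in the UPPL1541 culture and 0 in the BBN963 culture, while Pla2g2f was at 0 in both cultures. Lrmp, an endoplasmic reticulum membrane protein gene, was at 3823, 9338, 5419.7 and 4904 in the UPPL1541 tumours, against 0 and 27 in the BBN963 tumours (log2 10.04, SE 2.08, adjusted p = 0.00363), with 415 in the UPPL1541 culture and 1.22 in the BBN963 culture. Odz2, which encodes teneurin-2, was at 591, 449.8, 513 and 493 in the UPPL1541 tumours, against 0 in both BBN963 tumours (adjusted p = 0.012). Both BBN963 tumours were below all UPPL1541 tumours in each of these 5 genes, and 210 of the 634 genes of this kind had both BBN963 tumours at 0. Expi, Lrmp and Odz2 did not pass between line-derived tumours without BBN963 tumour 1 (adjusted p 0.0605 to 0.154) and Odz2 without BBN963 tumour 2 (0.0747). Lrmp did not pass for the difference of differences without BBN963 tumour 1 (adjusted p 0.0669).

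In the other direction, Galk1, the first enzyme of galactose breakdown, was at 29.9, 32.6, 78.2 and 36.9 in the UPPL1541 tumours, against 534 and 369 in the BBN963 tumours (log2 -3.40, SE 0.74, adjusted p = 0.00526; difference of differences log2 -4.36, SE 0.83, adjusted p = 0.00213). Ero1l, an oxidase of protein folding, was at 4931, 3528, 1697 and 1985 in the UPPL1541 tumours, against 15250 and 17690 in the BBN963 tumours (log2 -2.57, SE 0.75, adjusted p = 0.0347; difference of differences log2 -3.59, SE 0.85, adjusted p = 0.00979). For both genes every UPPL1541 tumour was below both BBN963 tumours. In the primary tumours UPPL1541 and BBN963, Galk1 was at 146 and 325 and Ero1l at 9877 and 16570. Cyp2s1, an epithelial cytochrome P450 gene, was at 306, 256, 96.8 and 117 in the UPPL1541 tumours, against 1604 and 1705 in the BBN963 tumours (log2 -3.25, SE 0.77, adjusted p = 0.00995; difference of differences log2 -3.72, SE 0.87, adjusted p = 0.0094). Tslp, the epithelial cytokine thymic stromal lymphopoietin, was at 4.78, 0, 0 and 0 in the UPPL1541 tumours, against 283 and 439 in the BBN963 tumours (log2 -7.83, SE 2.41, adjusted p = 0.0429; difference of differences log2 -9.02, SE 2.72, adjusted p = 0.0363). Cited1, a transcription cofactor gene, was at 10.8, 0, 0 and 0 in the UPPL1541 tumours, against 78.7 and 208 in the BBN963 tumours (log2 -6.12, SE 1.19, adjusted p = 0.00215; difference of differences log2 -6.44, SE 1.34, adjusted p = 0.00437). For Galk1 the same order held in culture (11.2 in the UPPL1541 culture and 980.5 in the BBN963 culture), as it did for Tslp (46.7 in the UPPL1541 culture and 479 in the BBN963 culture), while Cited1 was at 0 in the UPPL1541 culture and 1.22 in the BBN963 culture. Galk1, Ero1l, Cyp2s1 and Tslp did not pass between line-derived tumours without BBN963 tumour 1 (adjusted p 0.107 to 0.221), Ero1l, Cyp2s1 and Tslp without BBN963 tumour 2 (0.0696 to 0.195), and Tslp without UPPL1541 tumour 1, 2, 3 or 4 (0.0556 to 0.0821). Ero1l did not pass between line-derived tumours without UPPL1541 tumour 3 or 4 (adjusted p 0.0769 to 0.0816). Ero1l, Cyp2s1 and Tslp did not pass for the difference of differences without BBN963 tumour 1 (adjusted p 0.0693 to 0.161), Ero1l and Tslp without BBN963 tumour 2 (0.0515 to 0.135), and Tslp without UPPL1541 tumour 2, 3 or 4 (0.0607 to 0.0648).

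The basal keratin genes Krt5 and Krt14 did not pass in any contrast. Krt5, a basal keratin gene, was at 129800, 135400, 117600 and 125400 in the UPPL1541 tumours, against 137700 and 130300 in the BBN963 tumours and gave no call in the combined contrast (difference of differences log2 0.32, SE 0.92, adjusted p = 0.861). Krt14, its partner keratin, was at 131600, 185000, 115300 and 134900 in the UPPL1541 tumours, against 250400 and 229100 in the BBN963 tumours (difference of differences log2 0.23, SE 1.21, adjusted p = 0.927). In the list of 20 basal urothelial markers, 1 was higher and 2 lower in UPPL1541 tumours, 5 were lower in UPPL primary tumours and 0 passed for the difference of differences in limma. Of all genes 6.93% were higher and 1.24% lower in UPPL1541 tumours, 13.5% were lower in UPPL primary tumours and 9.22% passed for the difference of differences. Egfr, a growth factor receptor gene, was higher in UPPL1541 tumours (3249.7, 2387, 2579 and 2579 in the UPPL1541 tumours, against 906 and 879.9 in the BBN963 tumours; log2 1.58, SE 0.47, adjusted p = 0.0378) and gave log2 1.59, SE 0.53, adjusted p = 0.059 for the difference of differences. Lamb3, a laminin-332 chain gene, was lower in UPPL1541 tumours (2602, 1091, 945 and 954 in the UPPL1541 tumours, against 4269 and 4969 in the BBN963 tumours; log2 -1.86, SE 0.46, adjusted p = 0.0123), as was Serpinb5, which encodes maspin (4455, 6481, 4378 and 4395 in the UPPL1541 tumours, against 11310 and 11530 in the BBN963 tumours; log2 -1.23, SE 0.36, adjusted p = 0.0345). Krt10, a suprabasal keratin of cornifying epithelium, had its difference only after transplantation. Krt10 stood at 110600, 219600, 127200 and 189800 in the UPPL1541 tumours, against 852 and 1228 in the BBN963 tumours. Primary Krt10 levels were 39.96 to 96760 in UPPL tumours (median 1337), against 284 to 47220 in BBN tumours (median 7552). All 4 UPPL1541 tumours were above every other tumour of the 26, and Krt10 was at 59.8 in the UPPL1541 culture and 96.1 in the BBN963 culture. Krt10 gave log2 7.25, SE 2.07, adjusted p = 0.03 and a difference of differences of log2 9.18, SE 2.33, adjusted p = 0.0148. Krt1, its partner, had 117100, 198300, 98390 and 150400 in the UPPL1541 tumours, against 1423 and 773 in the BBN963 tumours and did not pass (log2 7.02, SE 2.77, adjusted p = 0.118). Egfr, Lamb3, Serpinb5 and Krt10 did not pass between line-derived tumours without BBN963 tumour 1 (adjusted p 0.104 to 0.222), without BBN963 tumour 2 (0.0995 to 0.167), and Egfr without UPPL1541 tumour 1, 2, 3 or 4 (0.0529 to 0.0889). Krt10 did not pass between line-derived tumours without UPPL1541 tumour 1, 2 or 4 (adjusted p 0.0532 to 0.058), Serpinb5 without UPPL1541 tumour 1, 3 or 4 (0.0696 to 0.0745), and Egfr and Serpinb5 with quantile normalization (0.0531 to 0.0661). Egfr did not pass between line-derived tumours with median-of-ratios scaling (adjusted p 0.0731). Krt10 did not pass for the difference of differences without BBN963 tumour 1 (adjusted p 0.115) and without BBN963 tumour 2 (0.0548).

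Outside the posterior HoxA group, 3 patterning genes lost the difference. Hoxb9, a homeobox gene of the posterior HoxB cluster, was at 281, 123, 190.0 and 186 in the UPPL1541 tumours, against 41.9 and 126 in the BBN963 tumours, with primary levels of 0 to 23.5 in UPPL tumours (median 7.38), against 20.2 to 2051 in BBN tumours (median 967.7). Hoxb9 gave log2 1.35, SE 1.59, adjusted p = 0.675, log2 -6.45, SE 0.83, adjusted p = 1.55e-05 and log2 7.79, SE 1.80, adjusted p = 0.00857 for the line-derived, primary and combined contrasts. The line-derived groups overlapped, while the UPPL primary tumours had the lower median. In culture Hoxb9 was at 542 in the UPPL1541 culture and 582 in the BBN963 culture, so that both cultures held it. Of 32 Hox and patterning genes tested, 4 were higher and 0 lower in UPPL1541 tumours, 5 were higher and 13 lower in UPPL primary tumours (5.94% and 13.5% of all genes), 3 kept the difference (Hoxa9, Hoxa10 and Hoxa11) and 3 lost it, among them Hoxb9 and Pax9, a paired box gene. Hoxb9 did not pass for the difference of differences without BBN963 tumour 1 (adjusted p 0.103). The list's count for the difference of differences was 1 without BBN963 tumour 1, 2 without tumour 2 and 2 higher with 1 lower with quantile normalization, beside 5 and 0 as deposited.

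The retinoid genes that passed for the difference of differences did so in favour of UPPL with the deposited scaling. Of 17 retinoid and vitamin A genes, 3 were higher and 1 lower in UPPL1541 tumours (6.93% and 1.24% of all genes). In UPPL primary tumours 0 were higher and 3 lower (5.94% and 13.5% of all genes). For the difference of differences 5 passed, all in favour of UPPL (8.16% of all genes did). Cyp26a1, which breaks down retinoic acid, was at 29.9, 16.9, 49.7 and 179 in the UPPL1541 tumours, against 0 in both BBN963 tumours (adjusted p = 0.00363), and Rbp4, the plasma retinol carrier, at 103, 90.0, 94.4 and 175 in the UPPL1541 tumours, against 0 in both BBN963 tumours (adjusted p = 0.0487). Rara, a retinoic acid receptor gene, lost its difference (log2 0.87, SE 0.42, adjusted p = 0.204 in line-derived tumours, log2 -1.03, SE 0.22, adjusted p = 0.00163 in primary tumours, difference of differences log2 1.9021, SE 0.47, adjusted p = 0.0125, and 1.26 without BBN963 tumour 1). Cyp26a1 and Rbp4 did not pass between line-derived tumours without BBN963 tumour 1 (adjusted p 0.0602 to 0.261), Rbp4 without BBN963 tumour 2 (0.187), and without UPPL1541 tumour 1, 2, 3 or 4 (0.0726 to 0.0935). Rbp4 did not pass between line-derived tumours with quantile normalization (adjusted p 0.089), with median-of-ratios scaling (0.0537), and without 10 single primary tumours in turn (0.0516 to 0.055). Cyp26a1, Rbp4 and Rara did not pass for the difference of differences without BBN963 tumour 1 (adjusted p 0.0506 to 0.243), Rbp4 without BBN963 tumour 2 (0.135), and without UPPL1541 tumour 1, 2, 3 or 4 (0.0606 to 0.0745). Rbp4 and Rara did not pass for the difference of differences with quantile normalization (adjusted p 0.0967 to 0.164), Rbp4 with median-of-ratios scaling (0.0535), and without 8 single primary tumours in turn (0.0518 to 0.0565). Without BBN963 tumour 1, 0 of the retinoid and vitamin A genes passed for the difference of differences, and with quantile normalization 2 passed in favour of UPPL and 1 in favour of BBN.

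Notch and Wnt genes held reversals as well. Jag1, a Notch ligand gene, stood at 8876, 7253, 6043 and 6110.2 in the UPPL1541 tumours, against 1532 and 2822 in the BBN963 tumours, above both BBN963 tumours in all 4, with primary levels of 699 to 3210 in UPPL tumours (median 1723), against 1237 to 7563 in BBN tumours (median 3220). Jag1 gave log2 1.75, SE 0.54, adjusted p = 0.043, log2 -0.98, SE 0.28, adjusted p = 0.0151 and log2 2.73, SE 0.61, adjusted p = 0.0068. Hey1, a transcriptional target of Notch, stood at 123, 73, 143 and 51.2 in the UPPL1541 tumours, against 0 and 9.8 in the BBN963 tumours (log2 4.79, SE 1.32, adjusted p = 0.0248; primary log2 -2.16, SE 0.69, adjusted p = 0.0275; difference of differences log2 6.95, SE 1.49, adjusted p = 0.00523; line-derived 3.08 without BBN963 tumour 1). Of 19 Hedgehog and Notch genes, 3 passed for the difference of differences, all in favour of UPPL, beside 8.16% of all genes. Shh, the Hedgehog ligand of urothelium, was at 0 in all 6 line-derived tumours and higher in UPPL primary tumours (log2 3.38, SE 1.07, adjusted p = 0.0263). Fzd1, a Wnt receptor gene, reversed, with 2435, 1373, 2298 and 2507 in the UPPL1541 tumours, against 569 and 782 in the BBN963 tumours, and 132 to 617 in UPPL tumours (median 351), against 614 to 2228 in BBN tumours (median 820.1) in primary tumours. Fzd1 gave log2 1.65, SE 0.47, adjusted p = 0.0289, log2 -1.37, SE 0.24, adjusted p = 0.000392 and log2 3.02, SE 0.53, adjusted p = 0.00102, the last of which passed in every alternative run. Dkk2, a secreted Wnt modulator gene, was at 777, 239.9, 652 and 654 in the UPPL1541 tumours, against 29.2 and 107 in the BBN963 tumours (log2 3.22, SE 0.91, adjusted p = 0.0289; difference of differences log2 4.31, SE 1.03, adjusted p = 0.0103). Of 26 Wnt pathway genes, 4 passed for the difference of differences, all in favour of UPPL, as did 8.16% of all genes with the deposited scaling. Jag1, Hey1, Fzd1 and Dkk2 did not pass between line-derived tumours without BBN963 tumour 1 (adjusted p 0.285 to 0.413), Jag1 and Fzd1 without BBN963 tumour 2 (0.0696 to 0.0776), and Jag1 without UPPL1541 tumour 1, 2, 3 or 4 (0.0618 to 0.1). Hey1 did not pass between line-derived tumours without UPPL1541 tumour 1 or 3 (adjusted p 0.0554 to 0.0585), Fzd1 and Dkk2 without UPPL1541 tumour 1, 3 or 4 (0.0587 to 0.0722), and Jag1 with quantile normalization (0.0515). Jag1 did not pass between line-derived tumours with median-of-ratios scaling (adjusted p 0.0744). Jag1, Hey1 and Dkk2 did not pass for the difference of differences without BBN963 tumour 1 (adjusted p 0.113 to 0.163). Hey1 did not pass between primary tumours with quantile normalization (adjusted p 0.0931) and without 3 single primary tumours in turn (0.0581 to 0.0592).

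Fibroblast and matrix genes had high summed levels in the line-derived tumours of both lines. Summed mesenchymal transition genes were 40220 to 136400 (median 124000) in the UPPL1541 tumours, against 36560 to 53560 in the BBN963 tumours. In primary tumours these mesenchymal sums were 3916 to 9107 in UPPL and 4870 to 53270 in BBN. Both line-derived groups thus overlapped the BBN primary range. Summed fibroblast and matrix genes were 112600 to 530600 (median 393500) in the UPPL1541 tumours, against 111400 to 168600 in the BBN963 tumours, and 506 to 9213 (median 3684) in UPPL primary tumours, against 1121 to 78730 (median 11860) in BBN primary tumours. In bulk tissue, fewer cells of a type and less RNA per cell cannot be told apart. Of 18 fibroblast and matrix genes, 1 was higher and 0 lower in UPPL1541 tumours, 0 were higher and 5 lower in UPPL primary tumours, and 2 passed for the difference of differences in favour of UPPL, beside 13.5% of all genes lower in primary tumours and 8.16% in favour of UPPL. Fap, a protease of activated fibroblasts, was at 736, 184, 615 and 704 in the UPPL1541 tumours, against 0 and 114 in the BBN963 tumours (log2 5.52, SE 1.68, adjusted p = 0.0408; difference of differences log2 6.77, SE 1.89, adjusted p = 0.0255; without BBN963 tumour 1 these were 2.1 and 3.35, and without tumour 2 8.95 and 10.2). Dpt, the matrix protein dermatopontin, was at 3661, 1585, 3698 and 7028 in the UPPL1541 tumours, against 0 and 396 in the BBN963 tumours, with log2 11.00, SE 3.08, adjusted p = 0.0257 for the difference of differences, and 6.68 without BBN963 tumour 1. Col1a1, the main chain of collagen I, was at 49410, 10710, 52980 and 72960 in the UPPL1541 tumours, against 36120 and 26030 in the BBN963 tumours, where the groups overlapped (log2 0.30, SE 1.55, adjusted p = 0.943), and gave log2 -2.45, SE 0.80, adjusted p = 0.0324 between primary tumours. Fap did not pass between line-derived tumours without BBN963 tumour 1 (adjusted p 0.708), without UPPL1541 tumour 1, 3 or 4 (0.0735 to 0.0875), and with quantile normalization (0.0535). Fap and Dpt did not pass for the difference of differences without BBN963 tumour 1 (adjusted p 0.369 to 0.445), Fap without UPPL1541 tumour 1 (0.0517), and with quantile normalization (0.0529). Col1a1 did not pass between primary tumours without 6 single primary tumours in turn (adjusted p 0.0531 to 0.0723).

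Of 16 mesenchymal transition genes, 1 was higher and 0 lower in UPPL1541 tumours, 0 were higher and 5 lower in UPPL primary tumours, and 2 passed for the difference of differences in favour of UPPL. Among all genes 13.5% were lower in UPPL primary tumours and 8.16% passed in favour of UPPL. Cdh2, which encodes N-cadherin, passed between line-derived and not between primary tumours. It was at 137, 27.4, 262 and 142 in the UPPL1541 tumours, against 0 in both BBN963 tumours (adjusted p = 0.0253, difference of differences adjusted p = 0.0309). Cdh2 was also high in the cultured line, with 1522 in the UPPL1541 culture and 6.08 in the BBN963 culture. Zeb2, a transcription factor of mesenchymal transition, was at 793, 329, 848 and 589 in the UPPL1541 tumours, against 92.6 and 93.1 in the BBN963 tumours and passed for the difference of differences alone (log2 4.10, SE 1.27, adjusted p = 0.0417). Zeb2 was at 18.7 in the UPPL1541 culture and 7.3 in the BBN963 culture, so its level in UPPL1541 tumours was not present in the cultured line. Vim, the mesenchymal filament gene, gave log2 1.26, SE 0.82, adjusted p = 0.378, log2 -1.17, SE 0.43, adjusted p = 0.054 and log2 2.43, SE 0.93, adjusted p = 0.0952. The part of stromal cells in these values was not tested, and the fibroblast sums above moved with them. Cdh2 did not pass between line-derived tumours without BBN963 tumour 1 (adjusted p 0.18), without BBN963 tumour 2 (0.122), and without UPPL1541 tumour 1, 3 or 4 (0.0514 to 0.0591). Cdh2 and Zeb2 did not pass for the difference of differences without BBN963 tumour 1 (adjusted p 0.16 to 0.191), without BBN963 tumour 2 (0.109 to 0.131), and without UPPL1541 tumour 1, 3 or 4 (0.0551 to 0.0805). Cdh2 and Zeb2 did not pass for the difference of differences with quantile normalization (adjusted p 0.0613 to 0.0646), Zeb2 with median-of-ratios scaling (0.0662), and without 5 single primary tumours in turn (0.0501 to 0.0524). Both mesenchymal transition genes lost this call without BBN963 tumour 1 and with quantile normalization, which left 0 of 16.

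Many macrophage genes differed between primary tumours, all lower in UPPL, and 2 of them lost that difference after transplantation. Of 20 macrophage and monocyte markers tested, 1 was higher and 0 lower in UPPL1541 tumours, 0 were higher and 12 lower in UPPL primary tumours, and 3 passed for the difference of differences, all in favour of UPPL. Of all genes 13.5% were lower in UPPL primary tumours and 8.16% passed in favour of UPPL. Summed macrophage and monocyte markers were 46090 to 68400 (median 55320) in the UPPL1541 tumours, against 21880 to 28870 in the BBN963 tumours, and 2222 to 17450 (median 10430) in UPPL primary tumours, against 8745 to 30850 (median 13670) in BBN primary tumours. All 4 UPPL1541 tumours were thus above every primary tumour. Lyz2, the lysozyme gene of macrophages, lost its difference. Lyz2 stood at 4351, 6443, 3782 and 3074 in the UPPL1541 tumours, against 1674 and 1078 in the BBN963 tumours. Primary Lyz2 levels were 155 to 455 in UPPL tumours (median 296), against 297 to 2711 in BBN tumours (median 817). All UPPL1541 tumours were above both BBN963 tumours, while UPPL was lower in primary tumours. Lyz2 gave log2 1.66, SE 0.65, adjusted p = 0.117, log2 -1.46, SE 0.34, adjusted p = 0.00373 and log2 3.12, SE 0.74, adjusted p = 0.00979 for the line-derived, primary and combined contrasts. Fcgr3, an Fc receptor gene, lost it too (1195, 1618, 1461 and 1084 in the UPPL1541 tumours, against 703 and 482 in the BBN963 tumours; log2 1.18, SE 0.63, adjusted p = 0.259, log2 -1.53, SE 0.33, adjusted p = 0.00192 and log2 2.71, SE 0.71, adjusted p = 0.0175). Csf1r, the receptor that maintains macrophages, gave log2 -2.15, SE 0.47, adjusted p = 0.00216 between primary tumours and log2 3.03, SE 1.01, adjusted p = 0.0572 for the difference of differences. Csf1r stood at 360.4 in the UPPL1541 culture and 0 in the BBN963 culture, where Lyz2 was at 0 in both. Cd68 did not pass in any contrast (difference of differences log2 0.36, SE 0.68, adjusted p = 0.779). Lyz2 and Fcgr3 did not pass for the difference of differences without BBN963 tumour 1 (adjusted p 0.0503 to 0.0778) and without BBN963 tumour 2 (0.0697 to 0.107). With either BBN963 tumour left out, 0 of the macrophage and monocyte markers passed for the difference of differences.

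T cell, cytotoxic and class II genes ran the other way in level. Summed T cell markers were 306 to 1046 (median 316) in the UPPL1541 tumours, against 881 to 897 in the BBN963 tumours, and 20.7 to 170.1 (median 57.6) in UPPL primary tumours, against 29.3 to 411 (median 174) in BBN primary tumours, and cytotoxic lymphocyte markers were 47.6 to 707 (median 92.9) in the UPPL1541 tumours, against 1468 to 2060 in the BBN963 tumours, and 12.7 to 121 (median 27.1) in UPPL primary tumours, against 37.9 to 286 (median 92.2) in BBN primary tumours. BBN963 tumours were thus above all UPPL1541 tumours in the cytotoxic sum, and within the UPPL1541 range in the T cell sum. Summed MHC class II presentation genes were 15470 to 60610 (median 21810) in the UPPL1541 tumours, against 68490 to 72970 in the BBN963 tumours, and 409.6 to 7314 (median 2922) in UPPL primary tumours, against 5048 to 16930 (median 8564) in BBN primary tumours. Of 15 T cell markers 2 were lower in UPPL1541 and 3 in UPPL primary tumours, and of 14 cytotoxic markers 2 were lower in UPPL1541 tumours and 1 was higher and 1 lower in UPPL primary tumours. Among all genes 1.24% were lower in UPPL1541 tumours, and 5.94% were higher and 13.5% lower in UPPL primary tumours. For the difference of differences, 1 T cell marker passed in each direction and 2 cytotoxic markers in favour of BBN. Of all genes 8.16% passed in favour of UPPL and 1.06% in favour of BBN. For 11 MHC class II presentation genes, 0 passed between line-derived tumours and 7 were lower in UPPL primary tumours. Summed skeletal muscle genes were 135 to 1187 (median 181) in the UPPL1541 tumours, against 275 to 15420 in the BBN963 tumours, and 0 to 7041 (median 216) in UPPL primary tumours, against 148 to 24380 (median 1648) in BBN primary tumours, so the BBN963 tumours differed widely from each other. None of the 19 proliferation genes passed between line-derived tumours or for the difference of differences in limma, and 2 were lower in UPPL primary tumours.

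**Figure D4:**
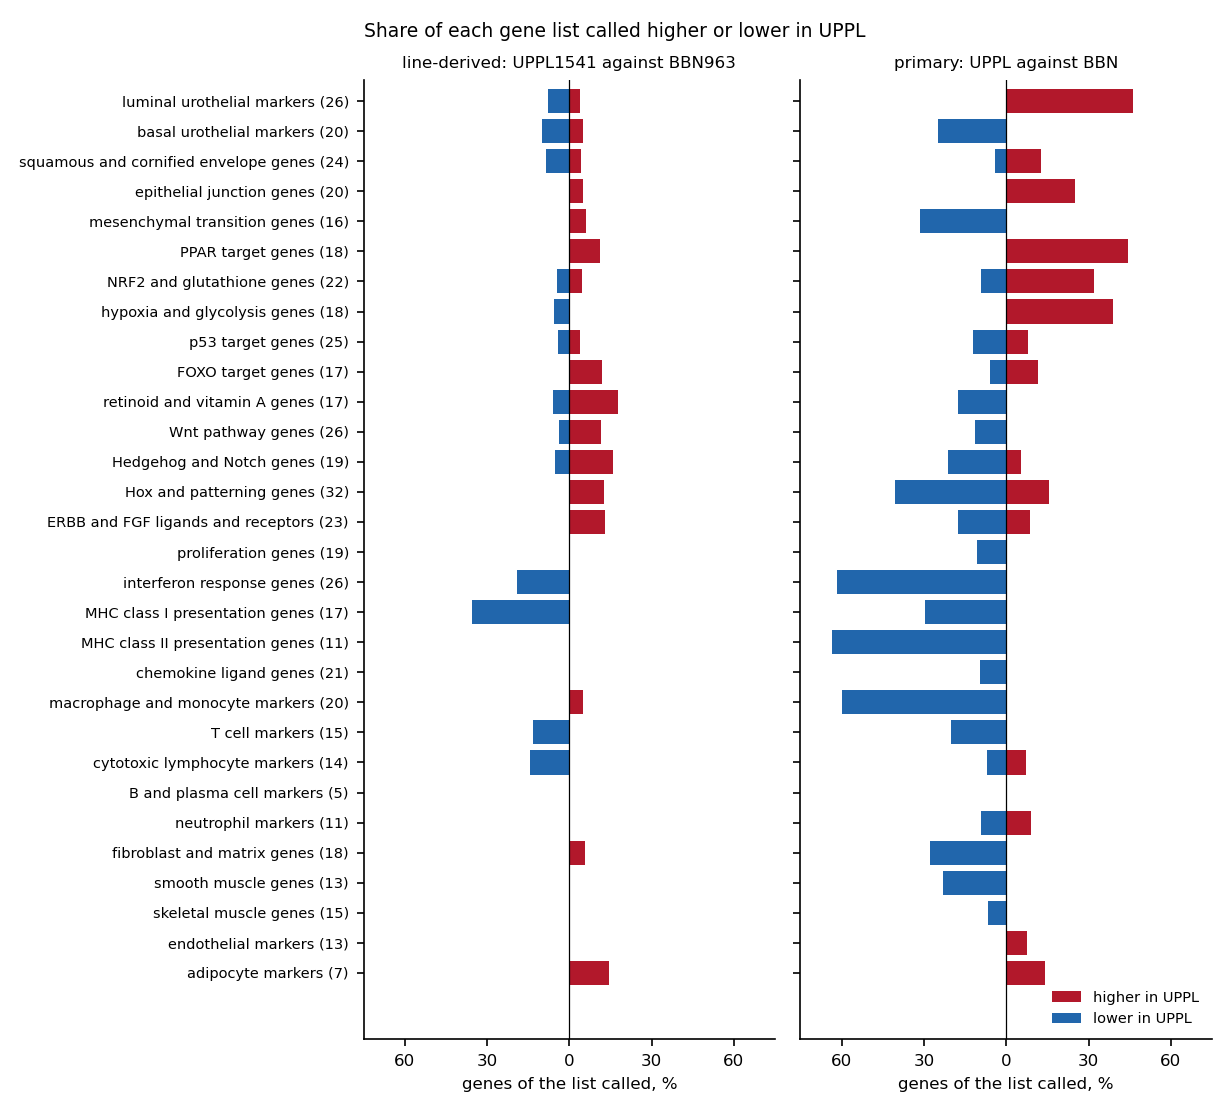
Share of the tested members of each of 30 gene lists that was called higher (right of 0) or lower (left of 0) in UPPL, in percent, between UPPL1541 and BBN963 tumours in the left panel and between UPPL and BBN primary tumours in the right panel. Luminal urothelial markers (1 of 26 higher in line-derived tumours, 12 of 26 in primary tumours) and macrophage and monocyte markers (0 of 20 lower in line-derived tumours, 12 of 20 in primary tumours) differ between the panels, while interferon response genes are lower in both (5 of 26 and 16 of 26).

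Single libraries of the cultured lines and of the primary tumours that carry the lines' numbers give these differences a second reading, with 1 library each and so no test. Of the 111 kept genes that were higher in UPPL1541 tumours, 68 (61.3%) were more than 2-fold higher in the UPPL1541 culture than in the BBN963 culture and 5 (4.5%) were more than 2-fold lower, beside 2223 of 9873 (22.5%) and 1372 (13.9%) for all genes with a higher line-derived estimate. Of the 57 kept genes that were lower, 26 (45.6%) were lower in culture, beside 1406 of 5121 (27.5%) for all genes. Genes called between line-derived and not between primary tumours showed the line-derived direction in culture in 242 of 634 (38.2%) for higher and 21 of 53 (39.6%) for lower genes. Reversed genes showed the line-derived direction in culture in 21 of 72 (29.2%) and 4 of 12 (33.3%). Lost genes showed the primary direction in culture in 16 of 76 (21.1%) for higher and 50 of 295 (16.9%) for lower genes and the opposite direction in 11 (14.5%) and 37 (12.5%). Over all genes with a primary estimate of that sign, 1302 of 5411 (24.1%) and 2102 of 9779 (21.5%) had the primary direction in culture, and 720 (13.3%) and 1366 (14%) the opposite. Between the primary tumours numbered UPPL1541 and BBN963, 93 of the 111 (83.8%) and 44 of the 57 (77.2%) kept genes were past 2-fold in the kept direction. Of all genes 25.3% and 31.4% were, by line-derived direction. Lost genes had the primary direction there in 41 of 76 (53.9%) and 169 of 295 (57.3%), beside 40.4% and 32% of all genes. Reversed genes went past 2-fold against their line-derived direction in 31 of 72 and 7 of 12, beside 1800 of 9873 and 643 of 5121 of all genes. These tumours were part of the primary groups that defined the classes.

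**Figure D5:**
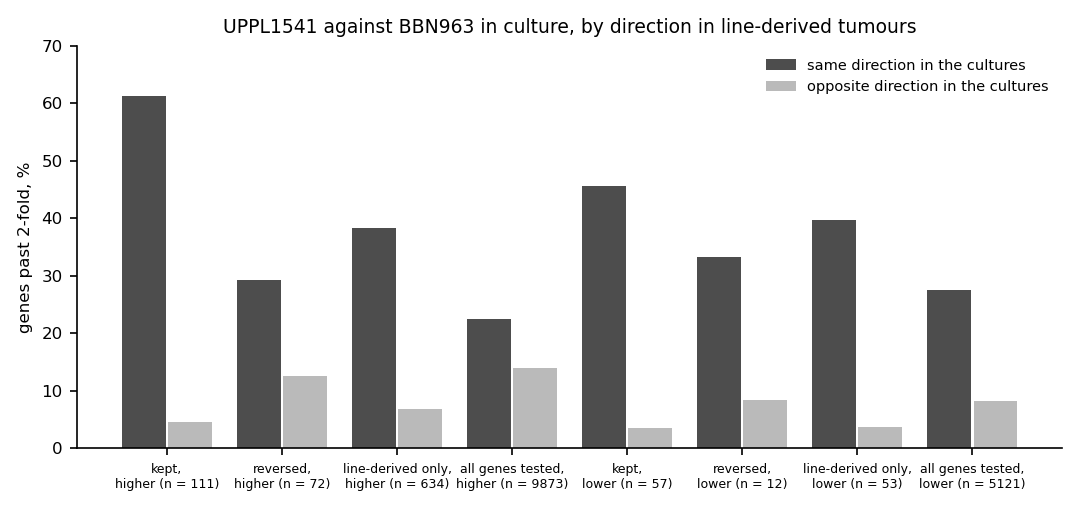
Percent of genes past 2-fold in the UPPL1541 culture over the BBN963 culture, in the direction of the line-derived difference (dark bars) or against it (light bars), for kept, reversed and line-derived-only genes and for all genes tested, by that direction. Kept genes that were higher in UPPL1541 tumours stand highest (61.3%, against 22.5% of all genes), and kept genes that were lower come next (45.6%, against 27.5%).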

How the data were processed

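Per the labels' protocols, RNeasy was used for RNA extraction and TruSeq Stranded mRNA for libraries. The submitters' processing notes list RSEM, SAMtools, Picard 1.64 and mm9, with no roles. The deposited signal values are gene estimates that the authors scaled per library to a 75th percentile of about 1000 over values above 0; divided by the value of 1 read in its library, 92.9 to 96.3% of values were whole within 0.02.

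Values were fitted as log2(value + 1) in limma 3.58.1 (trend) in R 4.3.3 for 15229 genes at 10 deposited units or more in at least 2 libraries, as 1 model of 4 group means over 26 libraries, with Benjamini-Hochberg adjustment and a threshold of 0.05. Differences of values are on that scale, which understates changes between low values. It can also enlarge a change against a 0 in a library whose most frequent low value is high. edgeR 4.0.16 on recovered reads was an alternative, beside a pseudocount of 10, other filters, quantile and median-of-ratios scaling, other spread models, a replicate block and leaving out each library. Scripts were tested on simulated data.

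Genes were named by rule: the genotype genes; up to 6 genes a direction with the largest difference of differences (for kept genes, the larger smaller difference) that kept, lost or reversed it, and 5 that had it only after transplantation, with a group mean of at least 100 and no predicted symbols; and the first 2 and up to 2 further genes of each list described. Some genes that the rule names are not reported here. Other genes were named after their values were seen. The groups, lists and rule were chosen with earlier results of these data known. Cultures and the tumours numbered as the lines were compared as single libraries at 2-fold. Promoter sequences are from RefSeq (GRCm38.p6), and no coordinates of the files' build were used.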

Additional observations from a re-analysis of the deposited data

Results flagged for a closer look

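A total of 60 of the 105 named genes had a UPPL minus BBN difference that differed between line-derived and primary tumours (limma, test of the difference of differences, Benjamini-Hochberg adjustment over 15229 genes). In favour of UPPL after transplantation the log2 difference of differences was 12.23 for Lrmp, 11.37 for Cyp2f2, 11.17 for Vnn1, 11.00 for Dpt, 9.18 for Krt10, 8.01 for Trpm6, 7.86 for Tnnt2, 7.82 for Lphn3, 7.81 for Slc24a3, 7.79 for Hoxb9, 6.95 for Hey1 and 6.77 for Fap. Smaller values of that sign were 4.31 for Dkk2, 4.10 for Zeb2, 3.12 for Lyz2, 3.02 for Fzd1, 2.73 for Sesn1, 2.73 for Jag1, 2.71 for Fcgr3, 1.92 for Trp53 and 1.9021 for Rara. In favour of BBN it was -9.02 for Tslp, -7.98 for Cyp2b10, -7.36 for Gdf15, -6.91 for Gcnt3, -6.86 for Aldh1a7, -6.68 for Fabp4, -6.44 for Cited1, -6.42 for Slc4a8, -6.08 for Sprr2f, -5.61 for Sprr2a1, -5.07 for Sh3gl2 and -4.77 for Ndrg1. Next in this direction were -4.36 for Galk1, -3.92 for Ptgr1, -3.72 for Cyp2s1, -3.68 for Hmox1, -3.59 for Ero1l, -3.22 for Hyal1, -2.58 for Hk2, -2.05 for Capn1, -1.58 for Nfe2l2 and -1.55 for H2-T23. Where a group was listed at 0, only the adjusted p is given: in favour of UPPL it was 4.45e-06 for Trh, 8.59e-05 for Skint1, 0.00068 for Pla2g2f, 0.00145 for Col10a1, 0.00145 for Ddit4l, 0.0018 for Ntrk2, 0.0018 for Kcnh2, 0.0018 for Expi, 0.00453 for Odz2, 0.00518 for Cyp26a1, 0.00862 for Ehhadh and 0.00979 for Foxa2. Further such values were 0.0158 for Evc2, 0.0309 for Cdh2 and 0.0436 for Rbp4. In favour of BBN the adjusted p was 0.0192 for Ghrh and 0.0387 for Cxcl11.

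Within groups of 4 to 10 samples, 205 group and gene combinations were tested for a single sample far from the others (Dixon's test), and 37 had one, in 35 genes; chance gives about 1 in 20. UPPL1541 tumour 2 stood apart as the highest of its group for Trh (3129) and Serpinb5 (6481) and as the lowest for Col10a1 (186), Fzd1 (1373), Dkk2 (239.9) and Fap (184), in deposited units. UPPL1541 tumour 3 was the highest of its group for Igtp (1581), Cxcl11 (9.93), B2m (59340) and Tap1 (2527) and the lowest for Ntrk2 (192). Primary tumour UPPL1694 was the highest of its group for Ddit4l (17), Hoxa9 (1151), Foxa2 (2.997), Rbp4 (189) and Ihh (191) and the lowest for Aldh1a7 (788), Sprr2f (432), Krt5 (10620), Krt14 (2249), Egfr (565), Wnt3a (0) and Col1a2 (7.99). Primary tumour UPPL1591 was the lowest for Hyal1 (673), Ghrh (0) and Upk1a (166). Primary tumour UPPL1595 was the lowest for Igtp (0), Vim (112), Hoxa3 (0) and Fzd1 (132). UPPL1541 tumour 1 was the highest of its group for Tslp (4.78), Cited1 (10.8) and Lamb3 (2602). Primary tumour UPPL1612 was the highest of its group for Ehhadh (682). Primary tumour UPPL1695 was the highest of its group for Cyp26a1 (7.14) and Ifit2 (354). Primary tumour UPPL1598 was the highest of its group for Rara (306).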

How the results depend on the processing

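Calls depended on the few line-derived libraries. With each library left out in turn, 239 to 1402 genes differed between line-derived tumours, 2488 to 3134 between primary tumours, and 296 to 1680 passed for the difference of differences. Kept genes numbered 30 to 197, lost genes 85 to 459, reversed genes 12 to 114, and genes with a difference only after transplantation 143 to 809, the lowest always without BBN963 tumour 1. Without BBN963 tumour 2 there were 719 line-derived calls, 920 for the difference of differences, 75 kept, 189 lost and 52 reversed genes. Without UPPL1541 tumour 1 there were 716, 841, 104, 243 and 43, and 386 genes only after transplantation. Without UPPL1541 tumour 3, 51 genes reversed, and without UPPL1541 tumour 4 there were 807 line-derived calls, 106 kept and 49 reversed genes, and 455 genes only after transplantation.

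Under quantile normalization 760 genes passed for the difference of differences, 195 lost, 51 reversed and 413 were called only after transplantation. Of the 168 kept, 371 lost, 84 reversed and 687 line-derived-only genes, 117, 118, 33 and 268 were in the same class. Estimating the spread per tumour kind gave 3968 line-derived calls, 3472 for the difference of differences, 456 kept, 670 lost, 232 reversed and 2093 only after transplantation. Separate fits per tumour kind gave 3145 line-derived calls and 373 kept genes, and a fit over all 36 libraries 130 reversed genes. In edgeR on recovered reads, added after seeing the data, there were 412 line-derived calls, 412 for the difference of differences, 99 kept, 183 lost and 31 reversed genes and 143 only after transplantation, of which 77, 94, 21 and 120 were shared. Without the 4 libraries that had a most frequent low value of at least 10 reads, also added, the counts were 325, 299, 38, 70, 15 and 165. A common floor of 30 units, added too, gave 1296 genes in favour of UPPL and 316 in favour of BBN.

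With a replicate block, 409 line-derived calls, 477 for the difference of differences, 58 kept, 126 lost, 18 reversed and 237 line-derived-only genes were left. Tumours of the same number share only that number: deviations of tumours numbered 1 and 2 had r = -0.0236.

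Among 105 named genes the sign of the log2 difference of differences turned in 45 of the values recomputed, in 14 genes, none of which had passed, and that of Foxa2 came to 0 with the common floor. It turned with a pseudocount of 10 for Upk3a (-0.709), with quantile normalization for Upk3a (-0.357), Wnt4 (-0.161) and Cd68 (-0.151), with median-of-ratios scaling for Krt5 (-0.00526), Krt14 (-0.0959) and Wnt4 (-0.289), with the replicate block for Prss12 (0.985) and Ihh (-0.671). With edgeR for Upk1a (2.9), Upk1b (2.41), Krt5 (-0.375), Krt14 (-0.605) and Wnt4 (-0.405), with the 4 libraries left out for Upk3a (-0.0619), Pparg (1.98), Hif1a (0.00269) and Irf1 (0.145), with the common floor for Upk3a (-2.14), Nrn1 (-0.962), Lancl3 (-0.584) and Ihh (-0.267), with leaving out BBN963 tumour 1 for Pparg (2.04), Wnt4 (-0.0529) and Irf1 (0.123) it turned as well. With leaving out UPPL1541 tumour 2 for Wnt4 (-0.106) and Irf1 (0.111), with leaving out UPPL1541 tumour 4 for Prss12 (0.749) and Irf1 (0.0968), with leaving out primary tumour BBN962 for Irf1 (0.0185), with leaving out primary tumour BBN968 for Wnt4 (-0.0128) it turned as well. With leaving out primary tumour BBN973 for Wnt4 (-0.0391) and Irf1 (0.00897), with leaving out primary tumour BBN974 for Wnt4 (-0.0259) and Irf1 (0.000468), with leaving out primary tumour UPPL1544 for Wnt4 (-0.0573), with leaving out primary tumour UPPL1591 for Irf1 (0.0197) it turned as well. With leaving out primary tumour UPPL1595 for Prss12 (0.0403), with leaving out primary tumour UPPL1597 for Irf1 (0.0433), with leaving out primary tumour UPPL1598 for Wnt4 (-0.134), with leaving out primary tumour UPPL1612 for Prss12 (0.0627) it turned as well. With leaving out primary tumour UPPL1694 for Krt5 (-0.0973), Krt14 (-0.346) and Wnt4 (-0.149), with leaving out primary tumour UPPL1695 for Irf1 (0.0473) it turned as well. With each library left out in turn it ranged from -4.45 to 2.04 for Pparg, -0.149 to 0.204 for Wnt4, -0.247 to 0.123 for Irf1, -0.673 to 0.749 for Prss12, -0.0973 to 0.519 for Krt5 and -0.346 to 0.4933 for Krt14. The cause was not tested. Of the other values for the difference of differences 3727 kept direction and side of the threshold, 260 no longer passed (43 genes) and 56 newly passed (16 genes). Line-derived values of 57 passing genes kept their side in 1939 cases and did not pass in 336, and primary values of 61 genes in 2283 and 157, with no change of sign.

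Depth limits genes with few reads: a 0 can mean up to 19 reads in BBN963 tumour 1, and 2 BBN963 tumours carry every line-derived contrast.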
